A study of Paracentrotus lividus with 54 samples.

Results

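The mesenchyme blastula and the blastula that precedes it were compared in whole embryos of the sea urchin Paracentrotus lividus. The libraries were taken by their stage labels: 2 mesenchyme blastula libraries (early, 18 h, and late, 20 h) were set against 3 blastula libraries (early blastula, 6.5 h, blastula, 7.5 h, and swimming blastula, 12 h), 5 of the 54 samples of the series. All are labelled wild type and normal embryonic development, with no treatment or allele in any group. RNA-seq covered 22 samples, 1 library per stage or adult tissue, beside 28 ATAC-seq samples and 4 CUT&Tag samples, the last not analysed here. The spread within a side therefore includes the change between its stages, and p-values measure the difference between sides against that spread and not against separate cultures of one stage. The files pair the gene identifiers with no names, so the stage labels were not checked against marker genes, and what follows concerns gene models.

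A sea urchin blastula is a hollow ciliated ball of cells that has used up part of its maternal RNA and has begun to transcribe its own genome. It dissolves the fertilization envelope with a secreted enzyme, hatches and swims. At the mesenchyme blastula stage the primary mesenchyme cells leave the vegetal plate and enter the blastocoel, where they later build the larval skeleton, and the remaining vegetal cells prepare the gut and the secondary mesenchyme. In a whole embryo, fewer cells of a type and less RNA per cell cannot be told apart.

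Gene models that rose and gene models that fell at the mesenchyme blastula stage were about equal in number with TMM scaling. With library size alone as the scaling 1704 rose and 2348 fell, and leaving out single libraries gave between 0 and 4199 genes that rose and between 0 and 4075 that fell. Of 33922 gene models, 20085 passed the filter on low counts and were tested. In mesenchyme blastula relative to blastula 3947 of them changed, 19.7%: 1992 rose and 1955 fell, 9.92% and 9.73% of the genes tested (edgeR's quasi-likelihood test, adjusted p under 0.05 after Benjamini-Hochberg adjustment over all of them). The median fitted log2 change was 2.61 among the genes that rose and -2.63 among those that fell, against -0.08 over all genes tested. A fitted change depends on the prior count where 1 side has almost no reads: the low side averaged under a floor of 3 counts per library, after division of the deposited counts by 2, in 312 of the genes that rose and 434 of those that fell. With these genes set to the ratio of their high side to that floor where it is smaller, the median size was 2.46 log2 units among the genes that rose and 2.4 among those that fell, 1364 and 1280 reached 2 log2 units and 293 and 197 reached 4. In each of the 1992 and 1955 genes the 2 sides did not overlap, which was also true of 28.8% of all tested genes upward and 28.6% downward. A further 3574 genes had an unadjusted p under 0.05 without passing the adjusted threshold.

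The genes that rose took up 27.0% and 25.9% of all counts in early and late mesenchyme blastula, against 5.25%, 5.6% and 7.9% in early, 7.5 h and swimming blastula. The genes that fell took up 4.23% and 4.71% in early and late mesenchyme blastula, against 27.2%, 25.9% and 17.3% in the blastula libraries in the same order. By both measures swimming blastula lay nearest to the mesenchyme blastula libraries. Levels are given as CPM, counts scaled to a common library size. With TMM factors included, the median gene that rose stood at 20.5 CPM in early and 20.7 CPM in late mesenchyme blastula, against 2.65, 2.83 and 4.15 CPM in the blastula libraries. The median gene that fell stood at 2.18 and 2.33 CPM in mesenchyme blastula, against 17.7, 15.7 and 11 CPM in the blastula libraries. These medians describe genes chosen by the test and are not a test of their own.

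Few of the changes were from or to no reads at all. Among the genes that rose, 87 had 0 counts in each of the 3 blastula libraries, and 36 of these also had 0 counts in every library from the egg to the 128-cell stage. Among all 20085 tested genes these numbers were 89 and 37. Such genes pass the filter only through the mesenchyme blastula libraries, so nearly all being called follows from the choice. Against that floor of 3 counts per library the mean level of the 87 in mesenchyme blastula was at least 1.94-fold higher, with a median bound of at least 3.73-fold and a highest bound of at least 64.1-fold. Among the genes that fell, 205 had 0 counts in both mesenchyme blastula libraries, and their bounds ran from at least 1.77-fold to at least 69.7-fold lower, with a median of at least 4.54-fold. Of all tested genes 349 had 0 counts in both, and these pass the filter only through the blastula libraries.

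**Figure D1:**
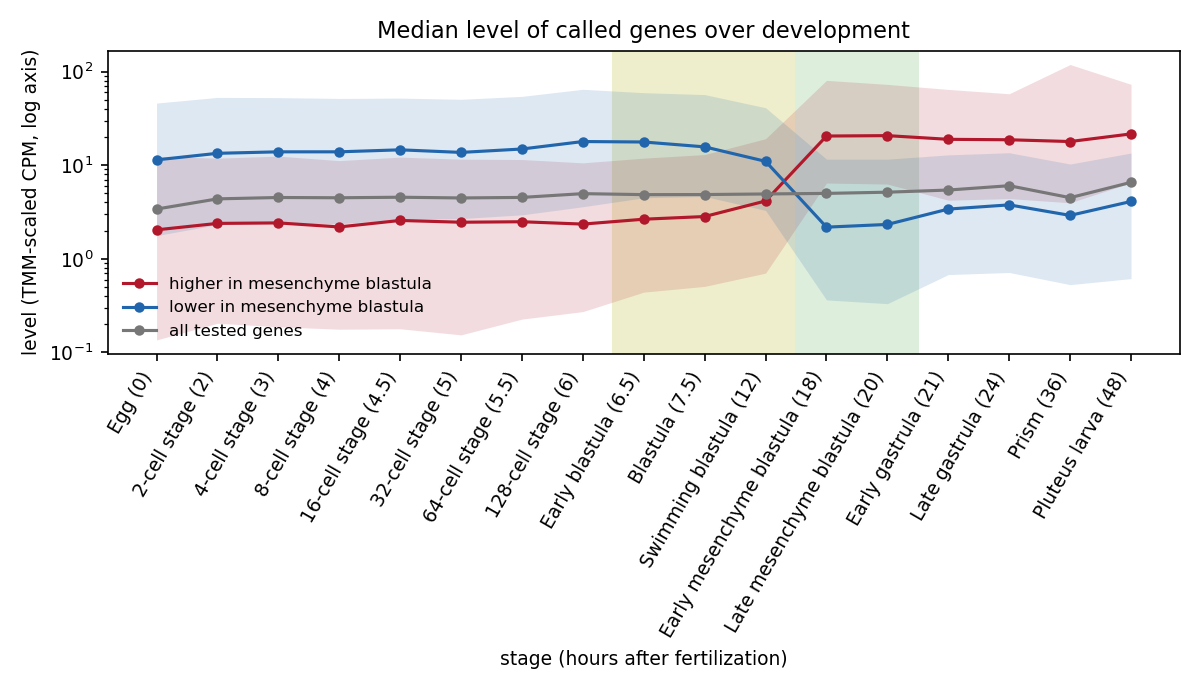
Median level (TMM-scaled CPM, log axis) of the 1992 genes that rose, the 1955 that fell and all 20085 tested, in 1 library per stage from egg to pluteus larva; bands are the middle 50% of the genes that rose or fell, and the shaded stages are the blastula and mesenchyme blastula libraries compared. The 2 medians cross between swimming blastula and early mesenchyme blastula and stay apart to the pluteus larva.

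4 gene models show the size of the change at its extremes, chosen as the 2 that rose and the 2 that fell most among those with at least 20 CPM in a library of the higher side and at least 10 counts in every library of the lower side. The levels given for them are CPM of the library total. PL00679, a single-exon model at bases 29043541 to 29048586 of Scaffold_3425, minus strand, had 203.7 CPM in early and 152.8 CPM in late mesenchyme blastula, against 1.184, 0.4225 and 0.4155 CPM in early, 7.5 h and swimming blastula. Its blastula libraries were flat and low, and the sides were far apart, with a log2 change of 8.28 (SE 0.6, edgeR adjusted p = 0.0026). Among the developmental libraries the high level was found only in these 2. PL00679 had 6.357 CPM in early gastrula, labelled 21 h, and 3.643 CPM in late gastrula, then 12.85 CPM in prism and 16.78 CPM in pluteus. A short-lived high level and a difference particular to the 2 mesenchyme blastula libraries cannot be told apart here. Among adult tissues it had 73.56 CPM in tubefeet, 18.02 CPM in Aristotle's lantern (the chewing apparatus), 5.185 CPM in bodywall, 0.6212 CPM in gut and 0.2754 CPM in ovaries. With early gastrula in place of both mesenchyme blastula libraries its log2 change was 3.28 (edgeR adjusted p = 0.119), and without early mesenchyme blastula it was 7.93 (edgeR adjusted p = 0.0543).

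PL39182, also a single-exon model, at bases 40148471 to 40150166 of Scaffold_3426, minus strand, had 636.9 CPM in early and 587.7 CPM in late mesenchyme blastula. It had 0.6376, 0.4225 and 6.814 CPM in early, 7.5 h and swimming blastula, so swimming blastula already stood above the other blastula libraries (log2 change 8, SE 1.32, edgeR adjusted p = 0.0125). Unlike PL00679 it stayed high, with 496.6 and 344.1 CPM at the early and late gastrula stages, and 844.8 and 379.5 CPM in the prism and pluteus larva. It was at 0 in 7 of the 8 libraries from the egg to the 128-cell stage, and at 0.1033 CPM in the 64-cell stage. Among adult tissues it had 1111 CPM in Aristotle's lantern and 172.7 CPM in tubefeet, but between 0.1102 and 1.433 CPM in ovaries, gut and bodywall. The call was lost without early mesenchyme blastula, without late mesenchyme blastula and without 7.5 h blastula, at edgeR adjusted p = 0.115, 0.0992 and 0.0647, with log2 changes of 7.83, 8.15 and 7.49.

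The 2 genes that fell most among those meeting the rule had their highest levels from the 128-cell stage to swimming blastula and were at or near 0 in the egg. PL12940, at bases 30545159 to 30551657 of Scaffold_3428, plus strand, in 9 exonic blocks, had 6.035 and 5.112 CPM in early and late mesenchyme blastula, against 2100, 4800 and 501 CPM in early, 7.5 h and swimming blastula. It came up fast, with 2.054 CPM at the 32-cell stage, 27.48 at the 64-cell stage and 319 at the 128-cell stage, and it was at or under 0.1706 CPM in the 5 libraries before them. Its log2 change was -8.56 (SE 1.16, edgeR adjusted p = 0.00865). PL22728, at bases 43116774 to 43122472 of Scaffold_3433, minus strand, also in 9 exonic blocks, had 12.69 and 13.35 CPM in early and late mesenchyme blastula, against 3890, 7714 and 602.2 CPM in early, 7.5 h and swimming blastula (log2 change -8.06, SE 1.22, edgeR adjusted p = 0.0108). It had 7.46 CPM at the 32-cell stage, 87.6 at the 64-cell stage and 727.9 at the 128-cell stage. Both genes were highest in the 7.5 h library and already several times lower in swimming blastula, so the spread within the blastula side was wide, and neither exceeded 13.35 CPM in any later stage or adult tissue. Without early and without late mesenchyme blastula the edgeR adjusted p was 0.115 and 0.104 for PL12940 and 0.124 and 0.113 for PL22728, and without 7.5 h blastula it was 0.0579 for PL22728, all with log2 changes of -7.19 or lower.

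**Figure D2:**
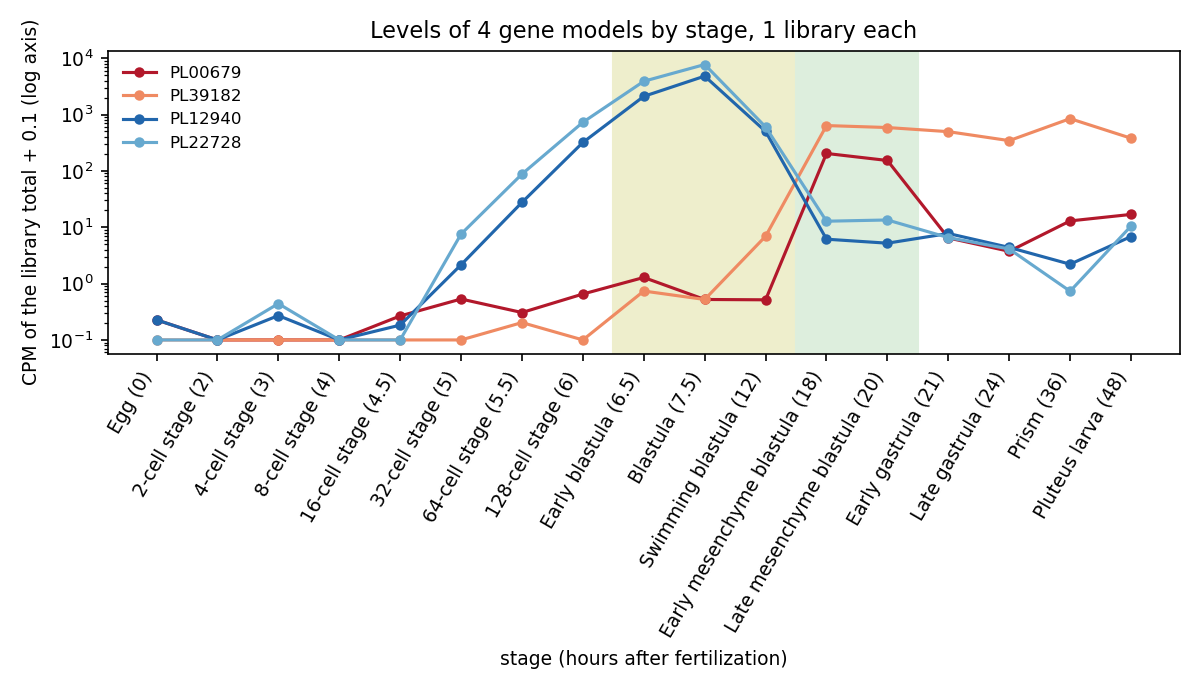
Level of PL00679, PL39182, PL12940 and PL22728 (CPM of the library total plus 0.1, log axis) in 1 library per stage, with the blastula and mesenchyme blastula libraries shaded. PL12940 and PL22728 peak in the 7.5 h blastula library at 4800 and 7714 CPM; PL00679 drops to 6.357 CPM in early gastrula, whereas PL39182 stays at 344.1 CPM or more from early mesenchyme blastula to late gastrula.

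Most of the change fell into 1 interval. In 1922 of the genes that rose (96.5%) and 1742 of those that fell (89.1%), the largest step between neighbouring libraries in the direction of the change was from swimming blastula to early mesenchyme blastula. That interval is also the longest, 6 h, against 1 h, 4.5 h and 2 h for the others, and the test favours genes that vary little within a side, so this count partly follows from how the genes were chosen. The median step there, on the log2(CPM + 0.5) scale, was 2.03 for the genes that rose and -1.68 for those that fell, against -0.04 over all tested genes. Between early and late mesenchyme blastula the medians were -0.06 and 0, and 96.5% of the genes that rose and 97.2% of those that fell lay within 2-fold, near the 94.2% of all tested genes.

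By swimming blastula a minority stood at least 2-fold in the direction of their change. For the genes that rose this share was not far above that of all tested genes. In 406 genes that rose (20.4%) swimming blastula was already at least 2-fold above the mean of the earlier blastula libraries, and in 462 that fell (23.6%) at least 2-fold below it. Of all tested genes 16.0% lay at least 2-fold above and 13.2% at least 2-fold below. In 23 genes that rose (1.15%) and 74 that fell (3.79%) swimming blastula had moved at least 2-fold the other way. In 1182 genes that rose (59.3%) and 1355 that fell (69.3%) swimming blastula lay strictly between the other blastula libraries and both mesenchyme blastula libraries. The same held for 3255 (16.2%) and 3324 (16.5%) of all tested genes in these directions. That position needs sides that do not overlap. All called genes had such sides, but only 5778 (28.8%) and 5740 (28.6%) of all tested genes, so the excess partly follows from how the genes were chosen. By swimming blastula the median gene had covered 13.9% of its log2 change among those that rose and 21.8% among those that fell. The median over all tested genes was 37.8%, and the test favours genes that vary little within a side. Over all 5 libraries 276 genes rose at every step (13.9%) and 407 fell at every step (20.8%). Of all tested genes 903 (4.5%) and 1013 (5.04%) did so, and such a course also needs sides that do not overlap.

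**Figure D3:**
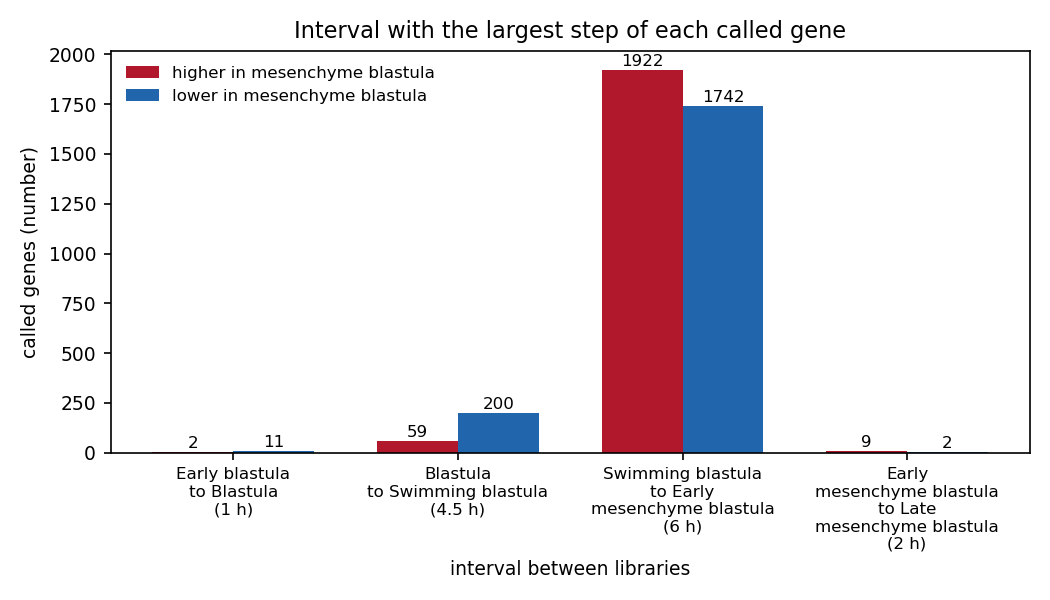
Number of called genes whose largest step in the direction of their change fell into each interval between neighbouring libraries, with the length of the interval in hours. The interval from swimming to early mesenchyme blastula holds 1922 of the genes that rose and 1742 of those that fell.

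The genes that rose were of 2 kinds by their level in the egg. At 1 CPM or more in the egg stood 1164 of them (58.4%), against 64.9% of all tested genes. Their median was 8.7 CPM in the egg, between 8.24 and 9.58 CPM in the libraries from 2-cell to 7.5 h blastula and 13.3 CPM in swimming blastula, and it was 50.9 and 48.3 CPM in early and late mesenchyme blastula. In 100 of these 1164 the mean of the blastula libraries was at least 4-fold below the egg. The same held for 937 of the 13040 tested genes at 1 CPM or more in the egg. The highest developmental library came before early blastula in 43 of the 1164 (3.69%), against 46.4% of those 13040. The genes that rose were chosen by high mesenchyme blastula levels, so this low share partly follows from the choice. The other 828 were under 1 CPM in the egg, and their median was 6.23 CPM in early mesenchyme blastula, against 0.548 CPM in swimming blastula. Under 1 CPM in every library from egg to 128-cell stage were 607 of the 1992, or 30.5%, against 22.4% of all tested genes.

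The genes that fell were mostly ones already present in the egg. Of the 1955, 1567 (80.2%) were at 1 CPM or more there, against 64.9% of all tested genes. In early, 7.5 h and swimming blastula, by which they were chosen, 93.6%, 95.1% and 92.7% were at this level. The shares of all tested genes were 73.0%, 76.3% and 77.2%, and the part of this choice in the egg share was not tested. The median of the 1567 was 19.4 CPM in the egg, 29.3 CPM at the 128-cell stage, 23.1 CPM in 7.5 h blastula and 15.9 CPM in swimming blastula, and 4 CPM in early mesenchyme blastula. The other 388 were under 1 CPM in the egg. Their median was 0.928 CPM at the 128-cell stage, 2.68 CPM in 7.5 h blastula and 0.0909 CPM in early mesenchyme blastula. Of the 388, 236 (60.8%) were highest in 1 of the 3 blastula libraries, by which they were chosen. The share was 24.2% among all tested genes under 1 CPM in the egg. Over development as a whole the highest library of 1095 genes that fell (56.0%) came before early blastula, against 34.2% of all tested genes, with 464 (23.7%) at the 128-cell stage, against 11.8%, and 357 (18.3%) in the egg.

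After the mesenchyme blastula stage both sets kept most of their distance. The median of the genes that rose was 18.9 and 18.7 CPM at the early and late gastrula stages, and 17.9 and 21.6 CPM in the prism and pluteus larva. The median of the genes that fell was 3.4, 3.77, 2.91 and 4.1 CPM in the same libraries. The highest developmental library was prism for 687 of the genes that rose (34.5%, against 17.6% of all tested genes) and pluteus for 326 (16.4%, against 10.4%). It was early mesenchyme blastula for 410 (20.6%, against 6.52%) and late mesenchyme blastula for 307 (15.4%, against 4.94%), libraries by which these genes were chosen. Prism had a TMM factor of 0.3976 against 0.9356 to 1.475 in the other developmental libraries and its 100 highest genes held 49.4% of its reads. The part of this in the count for prism was not tested. In pluteus 184 genes that rose (9.24%) were at least 4-fold below their mesenchyme blastula mean, against 7.84% of all tested genes. At their blastula mean or more in pluteus stood 153 genes that fell (7.83%), against 46.4% of all tested genes. The genes that fell were chosen by high levels in blastula, and the part of this in that share was not tested.

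Libraries that the test did not use showed the same directions. Early and late gastrula both lay above the 64- and 128-cell libraries in 1705 of the genes that rose (85.6%), against 39.9% of all tested genes. They both lay below in 1593 of the genes that fell (81.5%), against 39.1% of all tested genes. The median difference of gastrula minus cleavage, on the log2(CPM + 0.5) scale, was 1.99 for the genes that rose, -1.85 for those that fell and 0.02 for all tested genes. With early gastrula set against the 128-cell library alone, 1814 of the genes that rose (91.1%) lay above, against 48.3% of all tested genes, and 1728 of those that fell (88.4%) lay below, against 50.7%. Over the 4 libraries, in the opposite direction, 53 genes that rose lay below and 159 that fell lay above. These 4 libraries come from the same series of stages and have 1 library each, so the counts are given with no test.

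A small group behaved otherwise, as PL00679 did. In early gastrula, labelled 1 h after late mesenchyme blastula, 1407 of the genes that rose (70.6%) lay within 2-fold of their mesenchyme blastula mean, fewer than the 82.2% of all tested genes, and 169 (8.48%) were at least 4-fold below it, against 1.67% of all tested genes. The 169 were chosen by their blastula, mesenchyme blastula and early gastrula levels, so their medians in those libraries follow from the choice. The median of these 169 was 6.82 and 6.73 CPM in early and late mesenchyme blastula, against 0.368, 0.435 and 0.548 CPM in the blastula libraries. It was 0.453 CPM in early gastrula and 0.585 CPM in late gastrula, and then 1.59 CPM in prism and 3.49 CPM in pluteus. Among the genes that fell, 89 (4.55%) were at least 4-fold above their mesenchyme blastula mean in early gastrula, against 1.33% of all tested genes. Both sets were chosen by their mesenchyme blastula levels, which favours a move back in the next library. The part of this in both shares was not tested. A short-lived change and a difference particular to the 2 mesenchyme blastula libraries cannot be told apart for these genes.

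On Scaffold_2421 the mesenchyme blastula libraries stood apart from the stages next to them. Its 9 gene models took up 0.292% and 0.608% of the counts in early and late mesenchyme blastula, against 4.98%, 3.83% and 3.67% in early, 7.5 h and swimming blastula. The share was 3.32% in early gastrula, 4.5% in late gastrula and 3.2% in prism, but 0.209% in pluteus and between 0.0838% and 0.399% in the 5 adult tissues. The difference of -3.71 percentage points is a description, since the scaffold was chosen for this share, and an exact permutation test of 2 against 3 libraries can give no p below 0.2. Of these 9 models 7 were tested and 4 were called, all lower. The genes that move in step with this share and those that move with the stage cannot be told apart in these libraries.

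Removing the gene models of Scaffold_2421 and recomputing the library sizes left the result almost as it was. Of 20078 genes tested, 1978 rose and 1951 fell, 9.85% and 9.72%. All 1978 and 1945 of the 1951 were among the genes called with the scaffold included. The part of this scaffold's low share in the calls on other scaffolds was not tested beyond that. The share was again high in early gastrula, and adding this library to the mesenchyme blastula side gave 2364 genes that rose and 2355 that fell.

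Nearly all of the calls needed both mesenchyme blastula libraries and the 7.5 h blastula library. Without early and without late mesenchyme blastula every called gene still tested kept its direction, which largely follows from sides that do not overlap. Without early mesenchyme blastula edgeR called 0 genes in either direction, with 4439 at an unadjusted p under 0.05 and a smallest adjusted p of 0.0501, and without late mesenchyme blastula it called 16 that rose and 2 that fell. Without the 7.5 h blastula library 73 rose and 15 fell, whereas without swimming blastula 4199 rose and 4075 fell and without early blastula 2298 and 2229. With early gastrula in place of both mesenchyme blastula libraries, an alternative chosen after the data were seen, 49 rose and 2 fell. Over all 5 libraries DESeq2 called 2948 genes that rose and 3402 that fell.

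Gene starts were more often open in gastrula for the genes that rose. ATAC-seq marks open chromatin, and the deposited lists hold peaks per stage, with the early and late blastula lists identical and none for mesenchyme blastula. A summit within 1 kb of the annotated start was found in the gastrula list for 56.0% of the genes that rose (exact 95% interval 53.8 to 58.2), for 49.9% of those that fell (47.7 to 52.2) and for 51.0% of all tested genes. In the blastula list the shares were 47.9% for the genes that rose, 48.5% for those that fell and 46.8% for all tested genes. With each list limited to its 30683 highest-scoring peaks the blastula shares were 18.2% for the genes that rose (16.6 to 20.0), 22.3% for those that fell (20.5 to 24.2) and 20.0% for all tested genes, so the genes that rose then lay below all tested genes. The gastrula shares were then 29.9%, 25.5% and 26.9%. A start peak was present in the gastrula list and absent from the blastula list in 217 of the genes that rose (10.9%), in 129 of those that fell (6.6%) and in 8% of all tested genes. The reverse was found in 55 (2.76%), 102 (5.22%) and 3.76%. Intervals cover counting error only, and genes are not replicates.

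**Figure D4:**
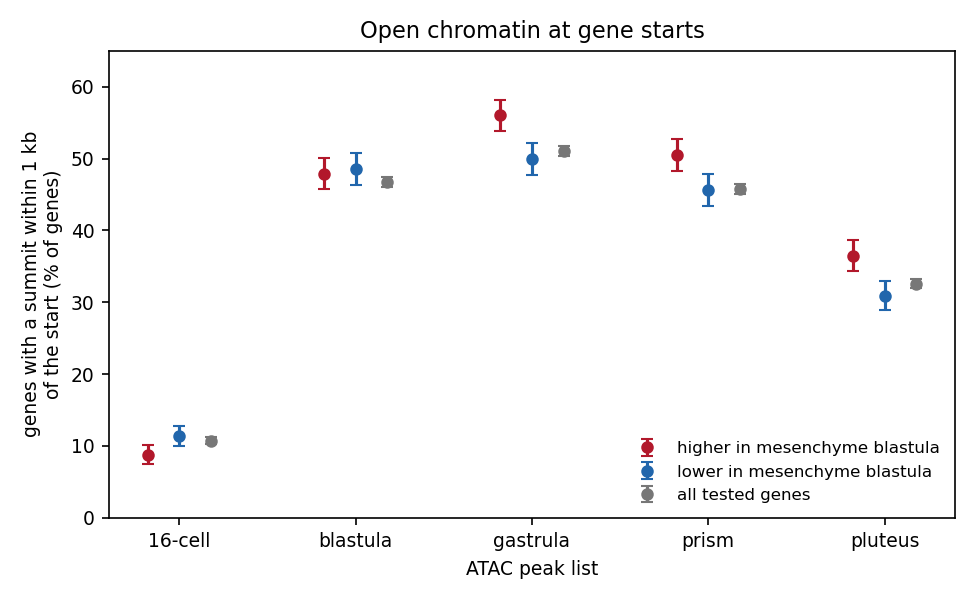
Percentage of the 1992 genes that rose, the 1955 that fell and all 20085 tested with an ATAC summit within 1 kb of the annotated start, in 5 peak lists; bars are exact 95% binomial intervals. In the blastula list the sets lie between 46.8% and 48.5%, and in the gastrula list the genes that rose stand at 56.0% against 51.0% of all tested genes.

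Peaks further out were counted apart from those at the start. A gastrula peak with no counterpart in the blastula list (a counterpart covers 50% or more of the shorter of the pair) had its summit more than 1 kb and up to 10 kb from the start of 47.5% of the genes that rose and 38.1% of those that fell, against 42.3% of all tested genes. A blastula peak with no counterpart in gastrula lay at this distance from 38.7% of the genes that rose and 42.4% of those that fell, against 39.8%. Counting all peaks of the gastrula list at this distance, the shares were 82.0%, 80.4% and 81.0%. PL22728 had a start peak in the 16-cell and blastula lists and in none of the later lists, and PL12940 in all lists but the pluteus one. PL39182 had one in the blastula, gastrula and prism lists, and PL00679 had one in all 5.

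Genes of one set often lay next to each other. Of the tested genes next to a gene that rose, 21.0% had risen as well, against 9.92% of all tested genes, and 7.82% had fallen. Of the neighbours of genes that fell, 18.9% had fallen as well, against 9.73%, and 7.99% had risen. The longest run of consecutive tested genes that rose was 7, and 69 runs held 3 or more. The longest run of genes that fell was 5, and 56 held 3 or more. Of the 410 neighbouring pairs that both rose, 231 were on the same strand and 19 overlapped on opposite strands. The run and strand counts have no counterpart over all tested genes here and only describe these neighbours. Reads that map to more than 1 place or to overlapping models may be lost or split in such neighbours, and the part of this in the counts was not tested.

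The models that rose were somewhat longer than the tested genes as a whole. The median exonic length was 2052 bp for the genes that rose, 1811 bp for those that fell and 1718 bp for all tested genes. The median span was 13158 bp for the genes that rose, 11259 bp for those that fell and 11062 bp for all tested genes, and the median was 6 exonic blocks in each. Single-block models made up 8.08% of the genes that rose, 10.4% of those that fell and 11.1% of all tested genes. On the 19 scaffolds with at least 200 tested genes, between 8.27% and 13.4% of the genes rose, the most on Scaffold_3431, and between 8.61% and 14.1% fell, the most on Scaffold_674.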

How the data were processed

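Whole-embryo or tissue RNA was isolated with Trizol and sequenced in pairs from stranded libraries, per the labels' protocols. Per the submitters' processing notes, STAR 2.5.2b aligned the reads and featureCounts 1.6.1 counted them. The deposited counts are whole numbers per gene model. Counting used strand option 1 without settings for pairs or multiple mapping, per the file header; which strand the kit follows and the genome build are not given in the sources used here, so reads may come from the opposite strand. Coordinates are as deposited, 1-based. Counts were even in 21 of 22 libraries, so intervals and floors use halved counts there. Totals of the 5 libraries ran from 21124768 to 24069560, a floor of 0.249 to 0.284 CPM.

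The test was edgeR 4.0.16 (R 4.3.3) with TMM and filterByExpr on counts as deposited, 5 libraries, 3 residual degrees of freedom; DESeq2 1.42.0 was an alternative. SEs come from the F statistic. Checked on simulated counts for these 5 libraries, with 200 of 19130 tested genes changed by 4 log2 units, edgeR called 196 of the 200 and 15 unchanged genes. DESeq2 called 199 of the 200 and 59 unchanged genes, with 20085 tested. The changed genes were picked among well-counted ones, and each side was simulated with no change between its stages. The check therefore does not cover genes with few counts, smaller changes, a large share of changed genes or stage differences within a side. Levels of classes use TMM factors over 22 libraries. The authors' deposited peak lists (Bowtie2 2.4.1, Genrich) give an area score, used only to rank peaks, and a -log10 p-value, not used for a result here. The lists are named for all samples of a stage and were taken as pooled. Genes were named by a rule: the 2 largest changes each way among called, non-overlapping genes at 20 CPM or more, with 10 counts or more in each library of the lower side. The comparison, lists and rule were chosen with earlier results of these data known. No gene list by function was used, and no sequence was used.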

Additional observations from a re-analysis of the deposited data

How the results depend on the processing

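Counts of calls rested on the libraries more than on the method. Leaving out each library in turn gave between 0 and 4199 genes that rose and between 0 and 4075 that fell; where 1 mesenchyme blastula library is left, it is assumed to vary like the blastula side, and residual degrees of freedom are few. DESeq2 called 3402 that fell. With early gastrula in place of both mesenchyme blastula libraries, an alternative chosen after seeing the data, 49 rose and 2 fell. Scaling by library size alone gave 1704 and 2348, with the median log2 change of all genes at -0.28 in place of -0.08. Other scaling, low-count filters, halved counts, the removal of Scaffold_2421 and early gastrula added to the later side moved both counts by less than 1.5 times. With genes near 0 on the low side set to their bound, 3 genes that rose and 6 that fell had a size under 1 log2 unit; the fitted size was 1 or more in all of them. The 4 named genes kept their sign in 14 of 14 alternatives each; 13 of these 56 fits missed the threshold, each with a library left out or with early gastrula as the only later library, at adjusted p between 0.0543 and 0.124. When each peak list was limited to its 30683 highest scores, the genes that rose had start peaks in the blastula list -1.82 percentage points from all tested genes, against 1.1 with full lists, and the genes that fell 2.26 against 1.75. With early gastrula against the 128-cell library alone, the excess over all tested genes was 42.8 points for the genes that rose and 37.7 for those that fell, against 45.7 and 42.4. The cause of these shifts was not tested. No paired analysis was possible because the sides share no replicate numbers in the labels.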

Other observations

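In the adult tissues, which no comparison used, more of the genes that rose were present than of all tested genes. At 1 CPM or more (TMM-scaled) in all 5 adult tissues were 60.3% of the genes that rose and 47.5% of those that fell, against 50.2% of all tested genes. In none of the 5 tissues at this level were 7.73% of the genes that rose and 11.8% of those that fell, against 11.4%. In early and late mesenchyme blastula, by which they were chosen, 96.4% of the genes that rose were at this level. The shares of all tested genes there were 73.8% and 73.7%, and the part of this choice in the adult shares was not tested. The median level of the genes that rose was 14.3 CPM in Aristotle's lantern, 12.3 in bodywall, 11.9 in gut, 11.8 in tubefeet and 8.17 in ovaries. All tested genes had medians of 3.69, 6.19, 5.02, 5.73 and 5.36 CPM in the same order. The TMM factors of lantern and gut were 0.2541 and 0.4814, against 0.7753 to 1.004 in the other adult tissues. Their 100 highest genes held 61.6% and 56.2% of their counts. The part of this in their levels was not tested. The median of the genes that fell was highest in ovaries, at 8.61 CPM, then 6.32 in bodywall, 5.12 in tubefeet, 3.87 in gut and 2.87 in lantern. Each tissue is 1 library.

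The 169 genes that rose and were at least 4-fold lower again in early gastrula had a median of 4.51 CPM in Aristotle's lantern and 2.41 CPM in tubefeet, against 0.542 CPM in ovaries, 0.717 in gut and 0.816 in bodywall. These levels are TMM-scaled as well, and the part of lantern's low factor, 0.2541, in its level was not tested.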
